A study of Mus musculus with 6 samples.

Results

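The genes described are 10 that define regulatory T cells, namely Foxp3, Il2ra, Ctla4, Tnfrsf18, Nrp1, Ikzf2, Ikzf4, Gpr83, Lrrc32 and Izumo1r. They were followed through every probe set whose single gene symbol in the platform annotation is one of these names, which gave 18 of the 45101 probe sets of the table, for 9 of the 10 genes. Lrrc32, the gene of the surface protein GARP that holds latent TGF-beta, has no such probe set and was not analysed here. RNA of CD4+YFP+ T cells sorted from lymph nodes was measured on 6 expression arrays. The mice all had FoxP3-GFP-hCre and ROSA26R-YFP, and were Dicerlox/lox in the KO group (3 arrays) and Dicerwt/lox in the Het group (3 arrays). Both groups carry Cre under Foxp3 control, the YFP reporter and at least a floxed copy of Dicer, so the Het cells are not wild type. YFP stays on once Cre has acted, so the sort takes cells that have expressed Foxp3 at some time, whether or not they still do. The labels give no age, and they do not say whether the arrays A, B and C of a group come from different mice. The p-values therefore speak of the spread among these 6 arrays, and that spread could be technical.

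Foxp3 is the transcription factor that sets the regulatory T cell programme, and it works with other factors such as the Ikaros family proteins Helios (Ikzf2) and Eos (Ikzf4). On the cell surface the programme shows as the high-affinity interleukin 2 receptor chain CD25 (Il2ra), the checkpoint receptor CTLA-4 (Ctla4), GITR (Tnfrsf18), neuropilin-1 (Nrp1), the G protein coupled receptor Gpr83 and the folate receptor family member Izumo1r, also called FR4. Dicer makes mature microRNAs from their precursors, and setting KO against Het asks what cells that switched on Foxp3 express when Dicer is missing.

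Among the identity genes Nrp1 alone passed the test, and it was lower in KO on all 4 of its probe sets, by 1.99-fold to 3.84-fold. The other 14 probe sets, of 8 genes, did not pass. Within these, Foxp3 was lower on 2 of the 3 KO arrays, Ctla4 and Il2ra lay higher in KO on every array without passing, and the 3 Ikzf4 probe sets and the Izumo1r probe set had log2 differences between -0.01 and 0.04. The test was limma on log2 intensities over all 29507 probe sets that had a log2 value above 4 on at least 3 arrays, with Benjamini-Hochberg adjustment and a threshold of 0.05. All 18 probe sets of the identity genes passed that filter, and 17 of them, Foxp3 included, lay above the array median on all 6 arrays. Over the whole array 1.78% of tested probe sets passed, 1.11% higher and 0.668% lower in KO, and by the brightest probe set of each gene 2.33% of 13280 genes passed, against 1 of the 9 identity genes. The median log2 difference of the 18 probe sets was -0.22, and it was -0.00071 over the 14 that are not of Nrp1, against -0.03 over all tested probe sets. Intensities of different probe sets are not set against each other, since probes differ in how strongly they bind.

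**Figure D1:**
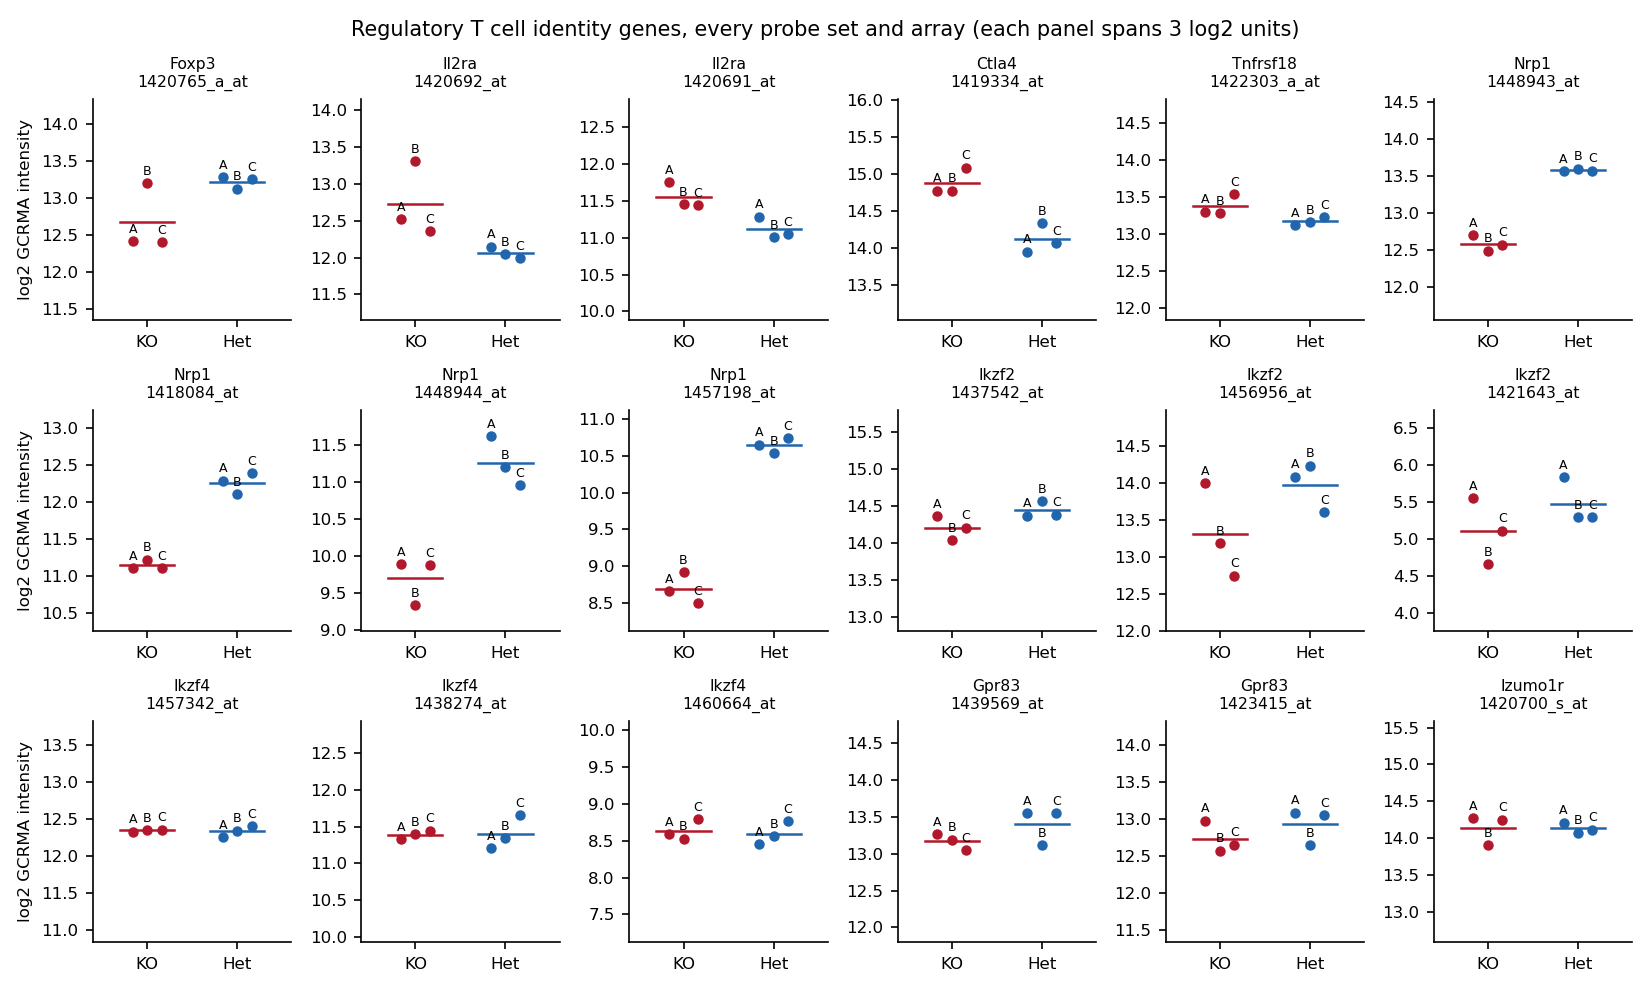
Log2 intensity of each of the 18 probe sets on the KO arrays (red, left) and the Het arrays (blue, right), with the array letter above each point and the group mean as a line. All 4 Nrp1 panels show the KO arrays below the Het arrays, and in the Foxp3 panel KO B sits among the Het arrays while KO A and KO C lie below them.

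The bases before the starts of the genes that the results turn on are shown for context, as RefSeq gives them for GRCm38.p6, from 250 bases before to 50 bases after an annotated start. They are the promoters of Nrp1, which fell, of Foxp3, the lineage factor, and of Ctla4, which had the largest positive difference. Capitals mark the letters TATAAA, the only searched motif found in these 3.
Nrp1, chr8:128358823-128359122, plus strand: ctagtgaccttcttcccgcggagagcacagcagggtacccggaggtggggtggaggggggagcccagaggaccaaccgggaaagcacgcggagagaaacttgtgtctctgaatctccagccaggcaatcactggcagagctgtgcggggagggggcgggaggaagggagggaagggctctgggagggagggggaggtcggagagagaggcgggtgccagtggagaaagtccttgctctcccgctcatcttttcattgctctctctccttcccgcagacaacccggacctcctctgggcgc
Foxp3, chrX:7579426-7579725, plus strand: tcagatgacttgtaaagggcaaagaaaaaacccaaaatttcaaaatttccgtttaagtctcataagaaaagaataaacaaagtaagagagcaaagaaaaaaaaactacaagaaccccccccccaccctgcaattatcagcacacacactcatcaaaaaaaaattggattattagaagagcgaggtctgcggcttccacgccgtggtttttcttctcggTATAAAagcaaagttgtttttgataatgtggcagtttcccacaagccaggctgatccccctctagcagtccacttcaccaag
Ctla4, chr1:60908775-60909074, plus strand: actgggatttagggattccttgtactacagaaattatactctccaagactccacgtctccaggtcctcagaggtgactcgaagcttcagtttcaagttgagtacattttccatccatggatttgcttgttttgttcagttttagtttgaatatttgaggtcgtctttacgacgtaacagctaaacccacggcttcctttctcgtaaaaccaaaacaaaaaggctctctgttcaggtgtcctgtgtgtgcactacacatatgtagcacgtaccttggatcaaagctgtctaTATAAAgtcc

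RefSeq promoters were found for 7 of the 10 genes, 8 in all, since Foxp3 has 2 annotated starts in the table. The 4 motifs searched on both strands were the forkhead motif TGTTTAC, the Runx motif TGTGGTT, the STAT motif TTCNNNGAA and TATAAA, none of which overlapped another in these promoters. TATAAA stood in 3 of the 8 and in 13.6% of all 32851 promoters of that length. Its positions from the start were -32 to -27 in Foxp3, -1 to 4 in Gpr83 and 40 to 45 in Ctla4, the last after the start. The STAT motif stood in 2 of the 8, in Tnfrsf18 and in the other Foxp3 promoter, and in 8.30% of all. The forkhead motif stood in 0 of the 8 and in 3.65% of all, and the Runx motif in 0 of the 8 and in 5.27% of all. These are matches of letters in these windows and no more than that. Gpr83 and Izumo1r are neighbours in the RefSeq gene table, with 0 annotated genes between them.

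The arrays had median intensities of 58.1 to 61.5, with Pearson's r across probe sets of 0.977 to 0.986 within KO, 0.982 to 0.985 within Het and 0.960 to 0.979 between the groups. Dicer1, the deleted gene, had a probe set at 1029, 1053 and 1187 on KO A, B and C against 1203, 1077 and 1059 on Het A, B and C. Its other probe set read 897, 976 and 709 in KO against 1218, 1120 and 1345 in Het. Neither passed (limma, adjusted p = 0.891 and 0.145), and since it is not known here whether these probes target the deleted exons, they do not check the labels. KO B and Het B were each the highest array of their group in the summed intensity of B cell, CD8 T cell, NK cell and myeloid markers. In bulk samples such as these, fewer cells that express a gene and less RNA per cell cannot be told apart.

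Foxp3 itself read 5453, 9417 and 5420 on KO A, B and C, against 9960, 8945 and 9769 on Het A, B and C. KO A and KO C lay below every Het array, KO B lay within the Het range, and the KO arrays differed among themselves by 1.74-fold, against 1.11-fold among the Het arrays. The log2 difference was -0.55 ± 0.23 (SE; limma, adjusted p = 0.285), with a 95% interval of -1.13 to 0.03 that is not adjusted for the number of probe sets. This interval allows a fall to 0.457 of the Het level as well as no change. The value turns on KO B: it was -0.81 without KO B (adjusted p = 0.0649) and -0.86 without both B arrays (adjusted p = 0.145), against -0.41 without KO C. In KO B, the KO array with the highest Foxp3 reading, the markers of other cells were also high. Het B had the highest marker sums of the Het arrays and the lowest Het Foxp3 reading, 8945. The summed B cell markers, 6 of 7 of which were on the array, read 793 to 2107 in KO and 555 to 1724 in Het, with KO B and Het B the highest of their groups. In KO B this held for Cd79b, Ms4a1, Cd79a and Blk. The dim Cr2 and Pax5, at 7.804 and 9.275, read lowest of the KO arrays there. In Het B each of the 6 read highest of the Het arrays. The CD8 chain genes, 2 of 2, summed to 4415 in KO B and to 636 and 670 on the other KO arrays, against 2257 in Het B and 651 and 909 on the other Het arrays. The NK cell markers (4 of 5 on the array) summed to 130 to 1663 in KO and 114 to 608 in Het. The myeloid markers (6 of 6) summed to 454 to 2344 in KO and 344 to 613 in Het. The highest sums of each group were again in the B arrays, but the myeloid sum of KO C, 950, was also above every Het array. In Het B the myeloid sum was high through Lyz2, at 381 against 50.6 and 97.4 on Het A and C. The other myeloid markers each read lowest of the Het arrays in Het B. The NK cell marker Klrb1c had no probe set with its single symbol. Klrd1 carried the NK cell sum, at 1621 in KO B, 566 in Het B and 69.2 to 91.9 on the other arrays. The other NK cell markers stayed low on all 6 arrays. Klre1 read 16.7 to 18.7, Ncr1 13.7 to 15.1 and Klra8 9.31 to 12.3. No deposited intensity was 0, the lowest being 1.23. The part of other cells in the Foxp3 and Il2ra values was not tested.

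The 5 named genes outside the list whose pattern over the 6 arrays was most like that of Foxp3 were Pacs1, Xab2, Mrps23, Rwdd2b and Lipt1, with Pearson's r on log2 values of 0.998, 0.995, 0.994, 0.994 and 0.993. Spearman's rho in the same order was 0.886, 0.986, 1, 0.714 and 0.714. This is a description over 6 arrays, with 29506 probe sets compared, of which 170 reached a Pearson's r of 0.95. Lipt1 read only 10.4 to 20.6, under the array median on all 6 arrays, so its r rests on dim readings. Pacs1 read 1674, 2214 and 1683 on KO A, B and C against 2272, 2212 and 2284 on Het A, B and C. It too had KO A and KO C low and KO B at the Het level.

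Helios, the product of Ikzf2, is carried by most regulatory T cells that arise in the thymus. Its brightest probe set read 21038, 16798 and 18911 on KO A, B and C, against 21149, 24246 and 21368 on Het A, B and C. The groups did not overlap, although KO A was only just under Het A, and the log2 difference of -0.24 ± 0.12 (SE) did not pass (limma, adjusted p = 0.342, 95% interval -0.52 to 0.05). Without both B arrays it was -0.09. Another Ikzf2 probe set read 16375, 9362 and 6883 in KO against 17434, 19366 and 12519 in Het. Its groups overlapped, its KO arrays differed by 2.38-fold, and its log2 difference of -0.67 ± 0.35 did not pass (limma, adjusted p = 0.379). The third read 25.2 to 46.9 in KO and 39.2 to 57.1 in Het, under the array median on all 6 arrays, so it carries little information on the gene (log2 -0.37, limma, adjusted p = 0.532).

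Eos, the product of Ikzf4, is a partner through which Foxp3 represses genes. Its brightest probe set read 5129, 5213 and 5229 on KO A, B and C, against 4877, 5182 and 5403 on Het A, B and C. The KO values lay inside the Het range, and the log2 difference of 0.01 ± 0.08 (SE; limma, adjusted p = 0.949) had a 95% interval of -0.18 to 0.20, a fold between 0.885 and 1.15. The other Ikzf4 probe sets gave log2 -0.01 (interval -0.34 to 0.32) and 0.04 (interval -0.26 to 0.34), also with overlapping groups. Of the identity genes, Ikzf4 was the one whose interval on the brightest probe set was the narrowest.

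**Figure D2:**
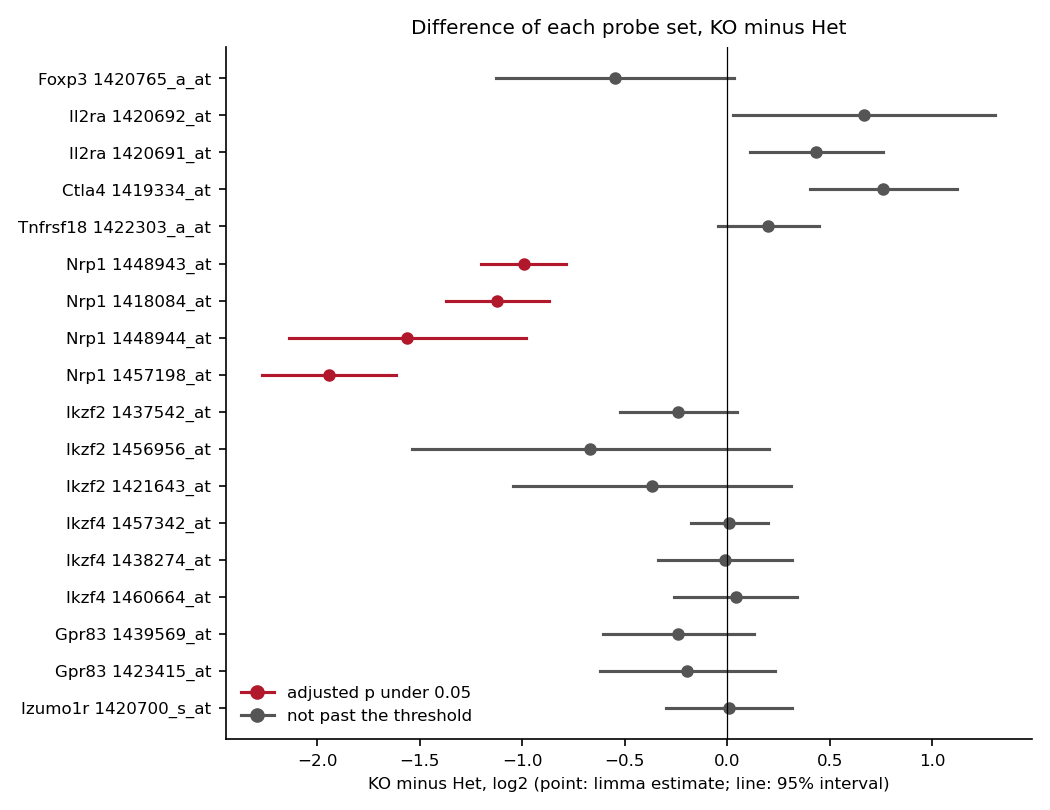
KO minus Het log2 difference of each of the 18 probe sets (points) with the 95% interval of the limma fit (lines, not adjusted for the number of probe sets), red where the adjusted p is under 0.05. The 4 red points are the Nrp1 probe sets, between -0.99 and -1.94, and the Ikzf4 and Izumo1r points lie at 0.

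Il2ra, whose product gives the interleukin 2 receptor its high affinity, was read by 2 probe sets. The brighter had 5860, 10148 and 5262 on KO A, B and C, against 4538, 4218 and 4062 on Het A, B and C. The dimmer had 3450, 2805 and 2769 on KO A, B and C, against 2491, 2054 and 2119 on Het A, B and C. Every KO array lay above every Het array on both, a separation that 26.2% of all tested probe sets showed in one direction or the other, 11.3% with KO above and 14.9% with KO below. Neither passed the test, with log2 differences of 0.67 ± 0.26 (SE; limma, adjusted p = 0.244) and 0.44 ± 0.13 (adjusted p = 0.161). On the brighter probe set KO B again stood apart from KO A and KO C, and without KO B its difference was 0.38, against 0.48 on the dimmer.

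Ctla4 encodes a receptor that competes for the costimulatory ligands of antigen-presenting cells. It read 28035, 28046 and 34748 on KO A, B and C, against 15799, 20661 and 17155 on Het A, B and C. The KO arrays stood 1.70-fold above the Het arrays with no overlap, and the lowest KO array was above the highest Het array by a wide margin. The log2 difference of 0.76 ± 0.14 (SE; limma, adjusted p = 0.0686; 95% interval 0.40 to 1.12) did not pass, except with array weights (0.85, adjusted p = 0.0437), and adjusted p ran from 0.0437 to 0.188 over the 15 alternatives tried. Its log2 difference was between 0.66 and 0.92 in all of them.

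Tnfrsf18 encodes GITR, a TNF family receptor with a costimulatory role. It read 10104, 9950 and 11908 on KO A, B and C, against 8919, 9182 and 9631 on Het A, B and C. All KO arrays were above all Het arrays, by a small margin, and the log2 difference of 0.20 ± 0.10 (SE) did not pass (limma, adjusted p = 0.351, 95% interval -0.05 to 0.45).

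Nrp1, a coreceptor for semaphorins and vascular growth factor that marks thymus-derived regulatory T cells in mice, fell. Its brightest probe set, 1448943_at, read 6641, 5757 and 6085 on KO A, B and C, against 12097, 12414 and 12187 on Het A, B and C. The next, 1418084_at, read 2203, 2385 and 2197 in KO against 5004, 4415 and 5380 in Het. The probe set 1448944_at read 949, 644 and 935 in KO against 3148, 2345 and 1987 in Het, and the dimmest, 1457198_at, 407, 487 and 363 in KO against 1606, 1485 and 1705 in Het. On each of the 4 the highest KO array was well below the lowest Het array, and KO B, which stood apart for Foxp3 and for the brighter Il2ra probe set, lay below the Het arrays as KO A and KO C did. The log2 differences in the same order were -0.99 ± 0.08, -1.12 ± 0.10, -1.56 ± 0.23 and -1.94 ± 0.13 (SE, n = 3 each; limma, adjusted p = 0.0191, 0.0222, 0.0448 and 0.0170). As folds of Het over KO these were 1.99, 2.18, 2.95 and 3.84. The probe sets share a gene and the same RNA, so they are not separate evidence, and they differ in the size of the fall.

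The size of the Nrp1 fall held with arrays left out, while the call did not. Over all 15 alternatives the log2 difference lay between -1.05 and -0.93 on the brightest probe set and between -2.11 and -1.84 on the dimmest. Of the 4 probe sets 2 passed when KO A was left out, 1 when KO B was, and 0 when KO C, Het A, Het B or Het C was (limma; each of the 4 had an adjusted p of at most 0.128 in these fits). All calls on the array thinned in the same way, with 525 on all 6 arrays against 0 to 176 with an array left out. Without both B arrays, the highest of their groups in the sums of other cell markers, the 4 differences were -0.93, -1.24, -1.41 and -2.11. Of these, 0 passed the test, with unadjusted p (limma) between 9.52e-05 and 0.00788. KO C, whose myeloid sum of 950 was above every Het array, stayed in that fit. The summed intensity of 5 of the 7 CD4 T cell markers was 85845 to 98144 in KO and 99405 to 107515 in Het, lower in KO on every array. In that sum Cd3d and Cd3g had every KO array below every Het array, as 16.8% of all genes did, while Cd3e, Cd5 and Cd4 overlapped, with Cd4 at a log2 difference of 0.12. Of these 5 genes 0 passed the test (limma, lowest adjusted p = 0.200). The part that the mix of cells plays in the Nrp1 values was not tested.

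**Figure D3:**
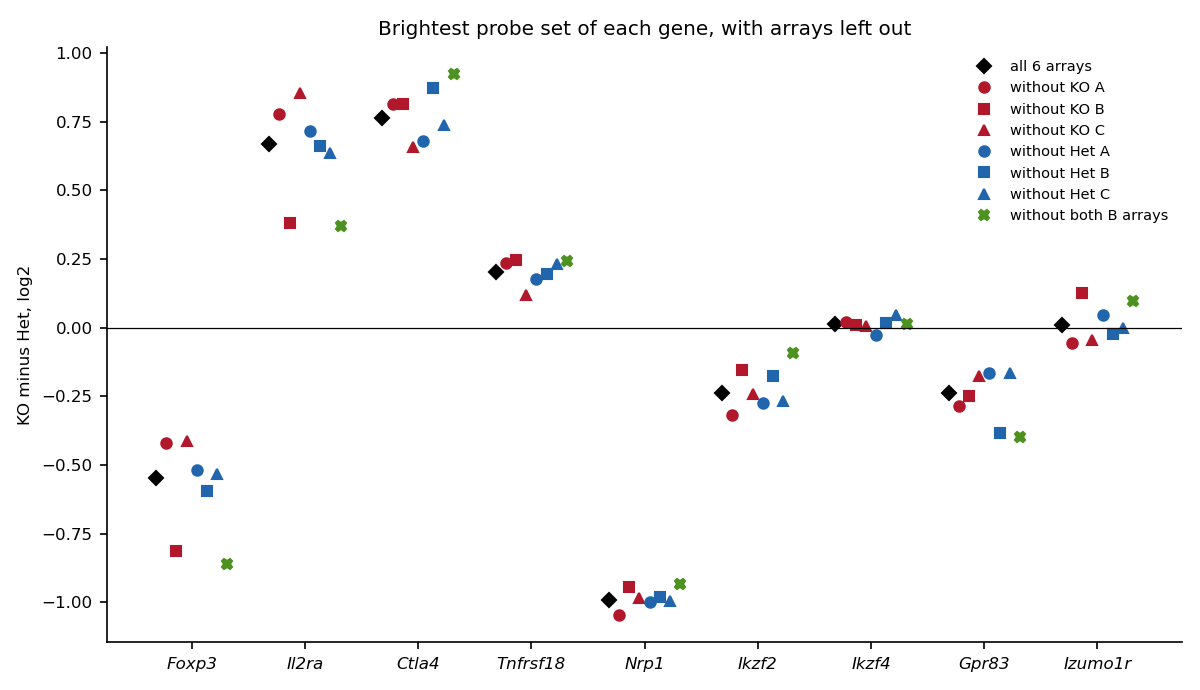
KO minus Het log2 difference of the brightest probe set of each of the 9 genes with all 6 arrays (black diamonds), without each KO array (red), without each Het array (blue) and without both B arrays (green crosses). Nrp1 stays between -1.05 and -0.93, whereas Foxp3 moves to -0.81 without KO B and to -0.86 without both B arrays, and Il2ra to 0.38 without KO B.

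Gpr83 was read by 2 probe sets. The brighter had 9807, 9349 and 8447 on KO A, B and C, against 11993, 8840 and 11976 on Het A, B and C. Het B was below KO A and KO B, so the groups overlapped, and the log2 difference was -0.24 ± 0.15 (SE; limma, adjusted p = 0.457), or -0.38 without Het B. The other probe set gave -0.19 ± 0.17 (limma, adjusted p = 0.604), with a 95% interval of -0.62 to 0.23. Izumo1r, the neighbouring gene, read 19768, 15375 and 19491 on KO A, B and C, against 18993, 17268 and 17760 on Het A, B and C. The Het values lay inside the KO range, and the fitted log2 difference was 0.01 ± 0.12 (SE), with a 95% interval of -0.30 to 0.31 (limma, adjusted p = 0.979).

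By the brightest probe set of each gene, the groups did not overlap for 5 of the 9 identity genes, with Il2ra, Ctla4 and Tnfrsf18 above and Nrp1 and Ikzf2 below Het. Over all genes 29.9% did not overlap, 13.2% with KO above and 16.8% with KO below.

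Beside these genes, 4 lists of related genes were measured in the same fit by the brightest probe set of each gene. Over all genes 1.37% passed as higher and 0.956% as lower. The lists were chosen with earlier results of these data known, so their counts and medians beside this background are descriptions and not tests. Of 38 other regulatory T cell signature genes 35 were measured, of which 5 rose, 2 fell and 28 did not pass, with a median log2 difference of 0.24 against -0.03 over all genes. Those that fell were Cd83, a marker of activated lymphocytes, at log2 -1.75 ± 0.13 (SE; limma, adjusted p = 0.0191), and Slc22a2, a gene of the organic cation transporter family, at -2.09 ± 0.33 (adjusted p = 0.0496). Slc22a2 read 75.6, 107 and 124 on KO A, B and C against 639, 296 and 415 on Het A, B and C. Those that rose were Tgm2, a transglutaminase, Gzmb, the gene of granzyme B, Penk, the precursor of enkephalins, Il10 and Samhd1, at log2 6.95, 3.96, 3.16, 2.98 and 0.44. Tgm2 read 2677, 3237 and 8936 on KO A, B and C against 31.5, 44.7 and 29.0 on Het A, B and C, where the Het readings are under the array median, so the size of that fold depends on how the background was subtracted. Its other probe sets that passed gave 5.55, 5.66 and 5.51, and the one that did not pass gave 0.43. The 4 other Samhd1 probe sets gave 0.11 to 0.33 without passing. Without both B arrays limma called 0 genes in each of the 4 lists, and at most 3 in any of them with 1 array left out.

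Of 41 transcription factors and cofactors that act on or with Foxp3, 37 had a probe set with their single symbol. The intensity filter left 36 to test, of which 2 rose, 1 fell and 33 did not pass (median log2 0.13). Xbp1, a factor of the unfolded protein response, read 12588, 14990 and 15127 on KO A, B and C against 7859, 7251 and 7824 on Het A, B and C. Its fitted log2 difference was 0.89 ± 0.10 (SE, limma, with an adjusted p of 0.0270), the probe sets at 0.97 and 1.08 passed as well, and a dim one gave 0.26. Runx3, a factor of the family that binds DNA with the Cbfb subunit, read 2468, 2965 and 2621 in KO against 1096, 1284 and 1029 in Het on its brighter probe set (log2 1.24, limma, adjusted p = 0.0232), while its dim probe set gave 0.31. Hdac9, a histone deacetylase, fell by 3.47 on the log2 scale (limma, adjusted p = 0.0247), to intensities of 9.22 to 11.5 in KO against 81.3 to 205 in Het. The KO readings are under the array median, so the size of that fold depends on how the background was subtracted. They are also under the filter's cut of log2 4, so Hdac9 entered the test only through its Het arrays. Its call carries less weight for that reason.

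Of 17 genes of the interleukin 2 receptor and its STAT5 signal, 16 were measured, 1 rose, 0 fell and 15 did not pass (limma; before adjustment 9 were higher and 0 lower at p under 0.05, against 10.7% of all genes higher and 11.6% lower). The gene that rose was Socs3, an inhibitor of cytokine signals, at log2 1.95 ± 0.18 (SE; limma, adjusted p = 0.0222), and all 3 of its probe sets passed. With any array other than KO A left out, 0 of the 16 passed. Il2rb, the beta chain of the receptor that CD25 belongs to, read 13118, 21705 and 12100 on KO A, B and C against 9168, 7552 and 9659 on Het A, B and C (log2 0.79, limma, adjusted p = 0.176). Its dimmer probe set passed, at log2 1.12 ± 0.16 (SE; limma, adjusted p = 0.0424). As with the brighter Il2ra probe set, KO B was the highest array of the brighter Il2rb one. A dim Ptpn2 probe set also passed, at log2 1.02 ± 0.09 (SE; limma, adjusted p = 0.0191), while the brightest Ptpn2 probe set gave 0.01. The median of the list was 0.46, and 9 of 16 had every KO array above every Het array, against 13.2% of all genes.

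Of 21 genes reported as repressed by Foxp3, 18 were measured, 1 rose, 0 fell and 17 did not pass (limma; before adjustment 10 were higher and 0 lower at p under 0.05, against the same 10.7% and 11.6% of all genes). Ifng, the gene of interferon gamma, read 663, 751 and 1104 on KO A, B and C against 241, 204 and 175 on Het A, B and C (95% interval of the fold 2.71 to 5.91; limma, adjusted p = 0.0263). Il2, a cytokine that regulatory T cells hardly make themselves, read 161, 195 and 176 in KO against 121, 85.5 and 93.0 in Het (log2 0.84, limma, adjusted p = 0.0666). Il2 and Il7r stand in both this list and the interleukin 2 list, and Lef1, Satb1 and Tcf7 in both this list and the cofactor list. The median was 0.63, and in 10 of 18 genes every KO array was above every Het array, with 0 of 18 the other way, against 13.2% and 16.8% of all genes. KO B also had the highest sums of CD8 T cell and NK cell markers, and the part of other cells in these values was not tested.

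**Figure D4:**
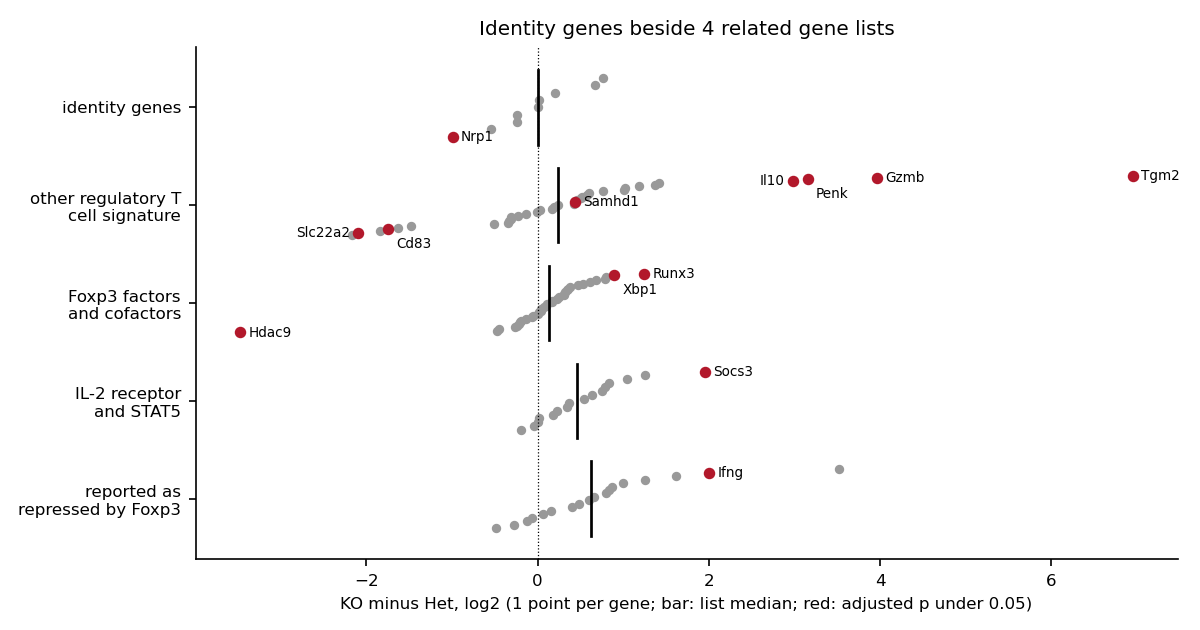
KO minus Het log2 difference of the brightest probe set of each gene (points) for the 9 identity genes and 4 related lists, with the median of each list as a bar and genes with an adjusted p under 0.05 in red and named. Identity genes spread to both sides with Nrp1 lowest, and the genes reported as repressed by Foxp3 have a median of 0.63.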

How the data were processed

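RNA of sorted CD4+YFP+ T cells was extracted with TRIzol and amplified by MessageAmp II, according to the protocols in the labels. The deposited values are probe set intensities that the authors normalized with GCRMA, per the labels, a method that subtracts a sequence-based background and so enlarges folds of dim probe sets. The labels give no version of it. The range of 1.23 to 170023 shows a linear scale, so log2 was taken. Of 45101 probe sets, 64 controls and 1 that lacks values were not used, and the 29507 with log2 above 4 on at least 3 of 6 arrays were tested. The platform annotation gave 34958 probe sets 1 symbol, 932 several and 9211 none. Of the first, 34754 matched the GRCm38.p6 gene table, with 0 symbols changed.

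The KO minus Het difference was fitted with lmFit and eBayes of limma 3.58.1 (R 4.3.3; two-sided, no covariates), with 3 arrays per group limiting the precision. The steps were tested on simulated data. Alternatives were a replicate block, other filters, quantile normalization, median centring, a pseudocount of 16, array weights, a trended robust prior, averaging the probe sets of each gene and fits without arrays. The members and lists were chosen with earlier results of these data known. Named genes are all members with every probe set, up to 4 genes per list past the threshold by smallest p, and the 5 genes most like Foxp3. Slc22a2, Il10, Samhd1, Il2rb, Ptpn2 and Il2 were named after their values were seen.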

Additional observations from a re-analysis of the deposited data

How the results depend on the processing

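The alternatives run on single probe sets, 15 for each and 14 for the dimmest Ikzf2 one, kept the sign of all 4 Nrp1 differences and of those of Foxp3, Il2ra, Ctla4, Tnfrsf18, Ikzf2 and Gpr83. Averaging probe sets was run on the related lists alone. The differences of Ikzf4 and Izumo1r, which lie near 0, changed sign. Under quantile normalization the brightest Ikzf4 probe set gave -0.034 and Izumo1r -0.076. With 1 array left out the 3 Ikzf4 probe sets ran from -0.028 to 0.046, from -0.11 to 0.12 and from -0.037 to 0.13, and Izumo1r from -0.056 to 0.13. The labels do not say what the letters A, B and C share, so the letters were not taken to pair the arrays. Same-lettered arrays deviated from their group means with correlations of 0.28, -0.17 and 0.01, and arrays of different letters with -0.45 to 0.37. With 3 arrays per group these correlations cannot decide whether the letters pair the arrays. Both B arrays had the highest sums of other cell markers in their groups. With the letter as a replicate block limma called 0 probe sets in the table (5365 at an unadjusted p under 0.05), 0 of the 18 of the identity genes (8 at an unadjusted p under 0.05, with adjusted p of 0.0836 to 0.102 for Nrp1) and 0 genes in each of the 4 related lists, and the block leaves fewer degrees of freedom. Without both B arrays these counts were also 0 (5274 in the table and 8 among the identity genes at an unadjusted p under 0.05), with fewer samples. With 1 array left out the calls were 0 to 176 in the table, 0 to 2 among the identity genes' probe sets, 0 to 3 in the signature list, 0 to 1 in the cofactor list, 0 to 1 in the interleukin 2 list and 0 to 1 among genes reported as repressed by Foxp3. Array weights gave 957 calls in the table and 2 in the last list, where the stricter filter (log2 above 6) and median centring also gave 2 and averaging the probe sets of each gene 3. That averaging gave 2 in the interleukin 2 list, and no filter gave 4 in the signature list against 7. The causes of these moves, other than sample number, were not tested.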
